A study of Mus musculus with 6 samples.

Results

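Collagens are the main structural proteins of the extracellular matrix, and the loci of their genes were examined here in open-chromatin maps of cultured macrophages from young and old mice. The members are all protein-coding RefSeq genes on chromosomes 1 to 19 and X whose symbol has the form Col, a number, the letter a and a number. This rule, which uses no measured value, found 44 genes of 21631. Each gene was taken with 10 kb on each side, and this stretch is called its locus. The measurement is ATAC-seq, in which a transposase inserts sequencing adapters into accessible DNA, so that stretches with many insertions (peaks) mark open chromatin. Both groups were bone-marrow-derived macrophages, F4/80+CD169+, of wild-type BALB/c mice with no treatment named in the labels. The young mice were 3 weeks old and the old mice over 78 weeks old, with 3 libraries of 50000 cells for each age. Nothing in the labels says that libraries of the same age stem from different mice or cultures. The p-values therefore reflect the spread between libraries, which may be technical. By its title the series is about marrow age and the course of B-cell acute lymphoblastic leukaemia, and the question taken here is how collagen loci differ in accessibility between the ages.

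Collagen chains wind around each other into a helix, and the family is sorted by what the helices build. Fibrillar collagens form the fibrils of bone, skin and tendon, network collagens form sheets such as the basement membrane, beaded-filament collagens form microfibrils next to cells, and fibril-associated collagens decorate the fibrils. In bone marrow the matrix is laid down mainly by stromal cells and osteoblasts, while macrophages are known for taking up and degrading collagen and for making some of it, type VI among others. A peak marks accessible DNA and does not measure transcription, so no value here is an expression level.

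The young lists held 223018 to 254410 peaks that covered 52.3 to 66.0 Mb of the chromosomes used, and the old lists 215947 to 245667 peaks that covered 48.2 to 63.7 Mb. Old libraries 2 and 3 and young library 2 covered the least. Read depth is unknown, since the files hold peaks and no reads, and a longer list can come from more reads. The fits were therefore run on the full deposited lists and again on equal-length lists, the 50000 peaks of each library with the highest −log10 q, the caller's confidence in a peak. The last peak kept had a −log10 q of 8.86, 6.71 and 9.96 in the young and 9.53, 5.72 and 6.47 in the old libraries. The same rank limit thus stands for a different confidence in each library. The value of a locus is the length covered by peaks, in bp, after scaling to the library's sum over all gene loci. Of the macrophage markers, all 13 loci reached the mean of 500 bp needed for testing on the deposited lists, but so did all 12 stromal, all 6 osteoblast and all 5 endothelial marker loci, and no marker was at 0 in all 6 libraries. So this filter separated the labelled cell type from none of the others. The median cover on the deposited lists was 74.1 bp per kb at macrophage, 38.2 at stromal, 68.0 at osteoblast and 43.9 at endothelial loci. On the equal-length lists it was 42.8, 15.6, 16.7 and 18.4 bp per kb in the same order. Median locus length differed too, at 31.1, 59.3, 34.4 and 81.1 kb, and these medians carry no test.

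Promoters of 35 of the 44 genes had an entry in the RefSeq promoter table (build GRCm38.p6), with 38 start sites in all. The sequences that follow show the 250 bases before 5 of these start sites, chosen because they span the range of openness found at collagen promoters: the start site with the strongest peaks (Col6a2), another among the strongest peaks of every library (Col1a2), one among the strongest peaks in all old libraries and 1 young library (Col6a1), one with weak peaks throughout (Col3a1) and one with no peak in any library (Col17a1). The Col6a2 window shown is that before its upper start site, and the same peak also covered its lower start site. The sequences are those of the reference strain, not of BALB/c. Capitals mark exact matches, on either strand, to 6 motifs. The first is TATAAA, the letters of a TATA box. CCAAT is the element bound by the factor NF-Y. GGGCGG is the GC box, known as a site of the Sp factors. TGANTCA is the site of the AP-1 factors. GAGGAA is the core of sites for PU.1, the master regulator of macrophages. TGTGGT is the site of the RUNX factors. Each run reads 5′ to 3′ on the strand of the gene and ends at the base before the start site.
Col6a2, chr10:76623631-76623880, minus strand: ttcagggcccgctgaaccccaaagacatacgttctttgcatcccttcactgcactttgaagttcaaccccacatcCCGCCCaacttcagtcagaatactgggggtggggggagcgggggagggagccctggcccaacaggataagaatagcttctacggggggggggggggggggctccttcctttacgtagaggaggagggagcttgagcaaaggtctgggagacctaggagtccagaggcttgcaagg
Col1a2, chr6:4505368-4505617, plus strand: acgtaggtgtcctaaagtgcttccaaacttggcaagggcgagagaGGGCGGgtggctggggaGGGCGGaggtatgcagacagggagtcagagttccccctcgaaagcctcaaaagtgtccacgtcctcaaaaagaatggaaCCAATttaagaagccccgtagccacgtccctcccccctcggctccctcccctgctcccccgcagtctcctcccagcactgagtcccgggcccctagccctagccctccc
Col6a1, chr10:76726045-76726294, minus strand: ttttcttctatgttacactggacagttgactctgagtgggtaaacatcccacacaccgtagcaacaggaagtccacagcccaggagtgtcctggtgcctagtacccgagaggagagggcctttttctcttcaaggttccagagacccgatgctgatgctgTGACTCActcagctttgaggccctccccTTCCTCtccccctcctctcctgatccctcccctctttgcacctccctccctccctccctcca
Col3a1, chr1:45311288-45311537, plus strand: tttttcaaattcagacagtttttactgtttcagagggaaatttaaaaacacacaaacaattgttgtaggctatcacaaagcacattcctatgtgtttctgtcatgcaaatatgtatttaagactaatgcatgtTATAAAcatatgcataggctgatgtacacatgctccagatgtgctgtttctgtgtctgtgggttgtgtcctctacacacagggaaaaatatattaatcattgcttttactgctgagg
Col17a1, chr19:47692043-47692292, minus strand: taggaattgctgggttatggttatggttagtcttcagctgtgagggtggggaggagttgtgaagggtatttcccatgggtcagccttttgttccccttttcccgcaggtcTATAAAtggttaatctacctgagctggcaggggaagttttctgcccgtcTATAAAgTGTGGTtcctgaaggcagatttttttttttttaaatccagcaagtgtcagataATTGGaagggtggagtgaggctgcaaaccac

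The 5 windows differ in base composition and in what they hold. The Col3a1 window has 35.2% G and C and a TATAAA 117 bases before the start, and the Col17a1 window has 46.0%, with TATAAA at 140 and 91 bases, a CCAAT box at 31 and a RUNX match at 84. The Col1a2 window has 62.0%, with GC boxes at 205 and 188 bases and a CCAAT box at 109. Col6a1 (56.0%) was the 1 collagen window of 38 with an AP-1 match, at 90 bases, beside a PU.1 core at 62, and Col6a2 (59.2%) held a GC box at 175. Over all collagen windows, GGGCGG was present in 57.9%, against 43.1% of the 21045 windows of all genes. TATAAA was present in 13.2% against 11.7%, CCAAT in 34.2% against 35.6%, GAGGAA in 26.3% against 22.5%, TGTGGT in 7.89% against 12.2% and TGANTCA in 2.63% against 6.17%. None of these motifs contains another. A match is a string of letters and not a shown binding site.

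A peak lay over the start site in all 6 libraries at 15 of the 35 collagen genes with a known start (42.9%), whereas the share was 54.9% of 17274 protein-coding genes. At 12 genes a peak was found in some libraries, and at 8 in none. The gap was wider for strong peaks. A peak among the 50000 strongest covered the start site in all 6 libraries at 5 collagen genes, or 14.3%, against 45.8% of all genes. These 5 were Col6a2, Col16a1, Col23a1, Col5a1 and Col1a2. Within 500 bp of the start, 24 of 35 collagen genes (68.6%) had a peak in every library, against 63.2% of all genes. In this wider window 1 collagen gene, Col13a1 (2.86%, against 0.214% of all genes), had a peak in all young and no old libraries, at ranks of 165654 or worse. Over the start site itself no collagen gene had a peak in all libraries of one age and in none of the other. These shares describe the lists and carry no test.

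The Col6a2 start site, which begins an alpha chain of the beaded type VI filament, held the strongest of these peaks. Ranked by −log10 q within its own list, the peak stood at 12883, 10606 and 5721 in the young libraries and at 10540, 3358 and 3304 in the old libraries. The authors' caller gave it fold enrichments over local background of 7.45, 7.01 and 8.90 in the young libraries and of 7.12, 8.87 and 8.82 in the old ones. The values of the ages overlapped, and ranks or folds from separate lists show no change between them. The peak lay mostly downstream of the upper start site: of the printed 250 bases, 28 to 69 were covered. The window before the lower start site, chr10:76623405-76623654, is not printed and was covered over all 250 bases in every library. That window holds GC boxes at 67, 15 and 11 bases and a PU.1 core at 134. At Col1a2, which encodes the second chain of type I collagen, the peak ranked 37419, 34673 and 43334 in young and 24477, 17829 and 28499 in old. It covered 198 to 250 of the printed bases.

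At Col6a1, the partner chain of Col6a2, the start-site peak ranked 54156, 47529 and 51707 in young and 40894, 41647 and 32481 in old. It was thus among the 50000 strongest peaks in 1 young library and in all 3 old libraries. At Col3a1, the chain of the fibrillar type III collagen, the ranks were 60329, 54629 and 56597 in young and 58658, 95862 and 79056 in old, so this promoter stayed outside the equal-length lists in all 6 libraries. Col17a1 is a transmembrane collagen of epithelial attachment. No peak touched its start site or its printed window in any library. The other start sites without a peak in any library were those of Col4a6, Col6a6, Col9a1, Col9a2, Col11a2, Col20a1 and Col28a1.

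**Figure D1:**
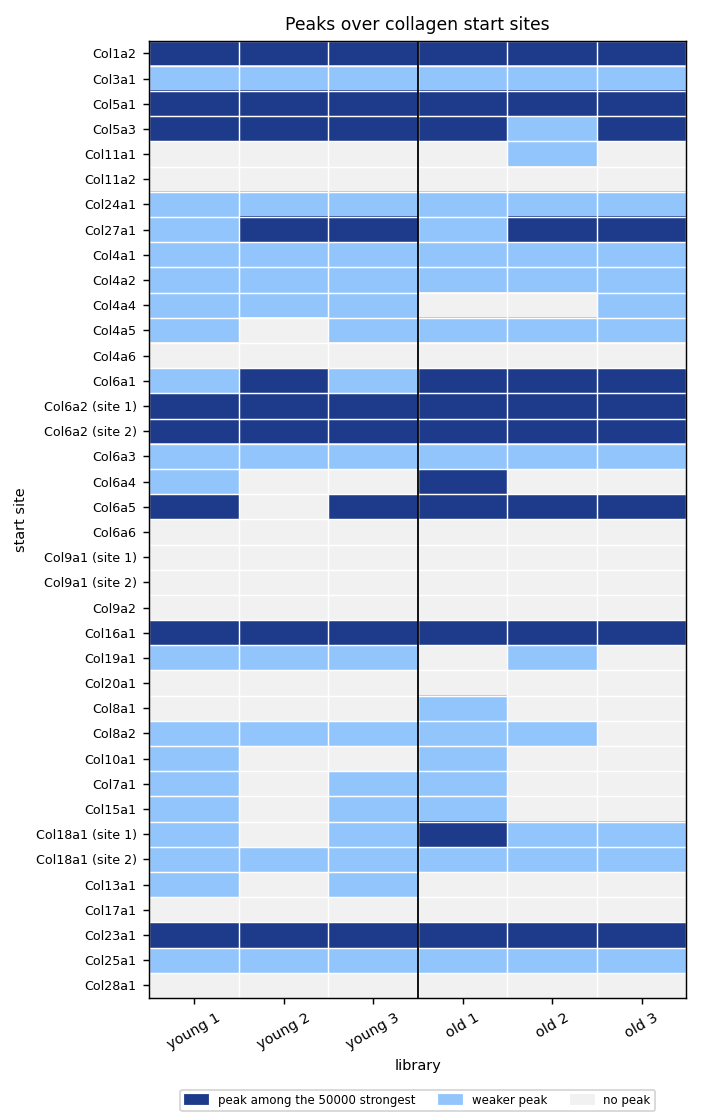
Peaks over 38 start sites of 35 collagen genes (rows) in the 3 young and 3 old libraries (columns). Dark cells mark a peak among the 50000 strongest of the library, light cells a weaker peak and grey cells no peak. Rows that are dark throughout belong to 5 genes, Col1a2, Col5a1, Col6a2, Col16a1 and Col23a1.

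Peaks at collagen loci lay mostly inside the genes. At most members the gene also made up most of the length of the locus, as each flank is 10 kb. The counts by place that follow were not scaled to length. Merged over the 6 libraries, the peaks formed 1715 regions, with a region shared by 2 loci placed by the first. Of these, 26 overlapped a known start site, 1400 the gene body without one and 289 the flanks. Start sites were known for 35 genes only. At the other members, Col1a1 among them, a region over the start of the gene counts as gene body. A region was present in all 6 libraries in 481 cases (28.0%, against 31.2% over all gene loci) and in 1 library only in 738 (43.0% against 39.9%). Start-site regions were the most constant, with 21 of 26 found in every library, against 380 of 1400 in gene bodies. Of the 20 regions whose weakest rank over the libraries was best, 12 lay in the body of a collagen gene, 1 over a collagen start site (Col6a2), 1 in the flank of Col5a3 and 6 in a flank over the start of another gene. Those neighbours were Mff beside Col4a3, Adprhl2 beside Col8a2, Pef1 beside Col16a1, Pfkfb4 beside Col7a1, Phykpl beside Col23a1, and Rxrb with Slc39a7 beside Col11a2. The strongest collagen-locus region of all, chr9:108991312-108992092, was the Pfkfb4 start site, ranked 126 to 326 in the 6 lists. The strongest regions inside collagen genes were chr11:51539290-51540155 in Col23a1, ranked 804 to 3630, and chr4:63315936-63316688 in Col27a1, ranked 1998 to 2733. The median collagen locus was 134.4 kb long and that of all genes 37.3 kb, and the median cover was 38.7 bp per kb at collagen loci and 42.6 over all loci. The medians on the equal-length lists were 11.0 and 20.1 bp per kb.

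Between the ages, covered length differed past the threshold at 1 collagen locus. The fit, limma with Benjamini-Hochberg adjustment over all loci, was run on log2 of covered length plus 200 bp, and differences below are old minus young on that scale. On the deposited lists, 43 collagen loci were tested. None was called wider in old and 1, Col4a3, was called narrower, at an adjusted p under 0.05. Over all 16943 loci, 0.390% were called wider and 0.578% narrower. Of the 43 differences, 17 were positive and 26 negative, with a median of -0.07 (0.01 over all loci). The limma fit gave 14 of the 43 collagen loci an unadjusted p under 0.05, against 2163 of all 16943 loci. The old values lay all above the young ones at 8 loci and all below at 4, together 27.9% of those tested. Over all loci 8.63% lay above and 8.36% below, together 17.0%.

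On the equal-length lists, 37 collagen loci were tested. None was called in either direction by limma, where 0.841% of 14380 loci were called wider and 0.438% narrower, and the smallest adjusted p was 0.0808, at Col3a1. At an unadjusted limma p under 0.05 there were 9 of the 37, against 2134 of all 14380 loci. Here 26 differences were positive and 11 negative, with a median of 0.16 (0.00 over all loci, to 2 decimals). Old values lay all above the young at 6 loci and all below at 4, or 27.0% of those tested. Over all loci 9.88% lay above and 10.5% below, or 20.3%. The sign of a collagen locus often depended on the list: of the 37 loci tested on both, 15 had opposite signs, and 13 of these were negative on the deposited and positive on the equal-length lists.

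Some marker sums also differed between the ages on the equal-length lists. Summed over 12 stromal marker loci, covered length on the equal-length lists was 10.9 to 12.3 kb in young and 13.5 to 16.1 kb in old. Over 6 osteoblast loci it was 9.71 to 11.5 kb and 12.3 to 13.7 kb, and over 13 macrophage loci 24.5 to 25.3 kb and 20.6 to 21.5 kb, and none of these ranges overlapped. For 5 endothelial loci the ranges, 5.55 to 6.04 kb and 5.85 to 6.41 kb, did overlap. The members of a sum did not all move together. Of the 8 stromal loci tested on these lists, 4 differences were positive and 4 negative. All 3 osteoblast loci tested were positive, and Runx2 alone had 5588 to 6611 bp in young and 6681 to 8257 bp in old. Of 11 macrophage loci 2 were positive and 9 negative, and of 4 endothelial loci 2 and 2. On the deposited lists the endothelial sums were apart, at 21.2 to 22.7 kb in young and 19.4 to 20.2 kb in old, with all 5 differences negative and none called by limma. The stromal sums there were 35.3 to 37.0 kb and 33.9 to 35.9 kb and the macrophage sums 43.4 to 43.8 kb and 40.1 to 43.6 kb. The osteoblast sums on the deposited lists overlapped, at 34.5 to 37.6 kb in young and 34.2 to 37.4 kb in old. Of the 6 osteoblast differences there, 1 was positive and 5 were negative, and Runx2 had -0.01. The single marker loci called by limma were Fap (-0.47, adjusted p = 0.0422) and Bglap (-0.53, adjusted p = 0.0364) on the deposited lists and Mertk (-0.53, adjusted p = 0.0347) on the equal-length lists. Their part in the collagen values was not tested.

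**Figure D2:**
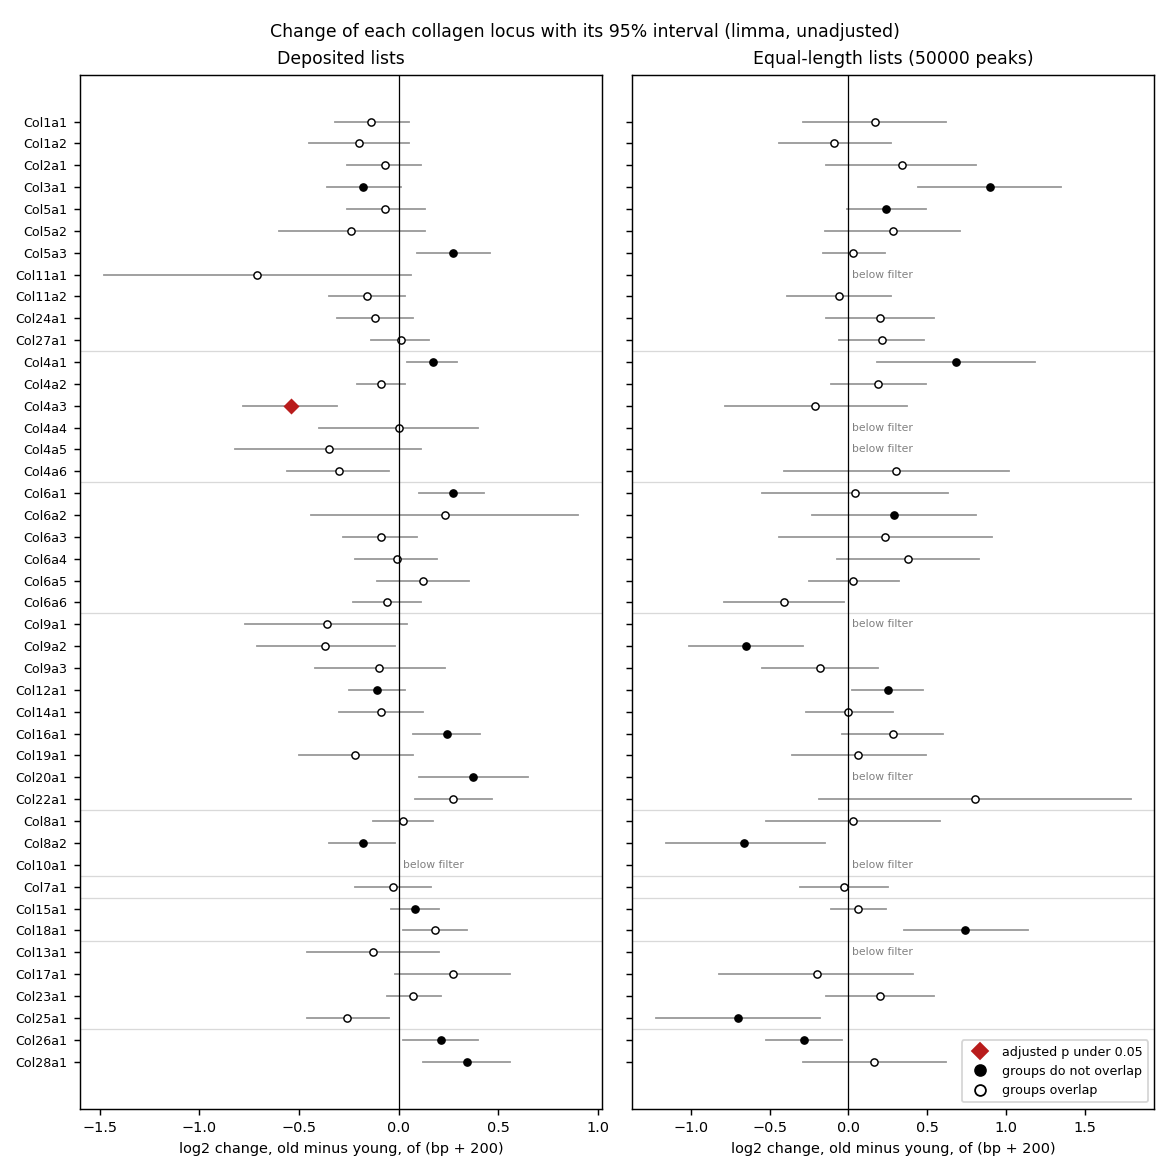
Difference of each collagen locus (old minus young, log2 of covered length plus 200 bp, horizontal axis) with its 95% interval from limma, unadjusted, on the deposited lists (left) and the equal-length lists (right), sorted by class. The red diamond at Col4a3 is the 1 locus with an adjusted p under 0.05, filled points mark loci where the ages do not overlap, and open points loci where they do.

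The called locus, Col4a3, encodes a chain of the basement membrane collagen of kidney, lung and inner ear, and spans chr1:82586921-82722059. Its locus was covered over 3065, 2928 and 3706 bp in young and 2392, 1858 and 2209 bp in old, or 3233 ± 415 and 2153 ± 271 bp (SD, n = 3). All 3 old values lay below all young values. The difference was -0.54 (SE 0.11, limma adjusted p = 0.0227). It passed in 7 of 17 alternative settings, with differences from -0.74 to -0.21 and adjusted p from 0.0106 to 0.775. With the total covered length of each library as a covariate the call was lost (-0.43, limma adjusted p = 0.110). On the deposited lists it was also lost in the limma fits without old library 2 (adjusted p = 0.0856), old library 3 (0.0632), young library 1 (0.0691) or young library 3 (0.145). The equal-length lists with all libraries lost it too (-0.21, limma adjusted p = 0.775). Young library 2 and old libraries 2 and 3, whose lists covered the least of the genome, were also below the others of their age here.

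The peaks behind the Col4a3 value were mostly weak. The regions within loci that are described here were chosen after their values were seen, and their lengths are unscaled. At chr1:82641822-82641913, inside the gene, a peak covered 84, 34 and 92 bp in young and 84, 0 and 0 bp in old. At chr1:82634343-82634918 the lengths were 418, 576 and 530 bp in young and 116, 0 and 262 bp in old, with ranks of 132404 or worse. The region inside the gene that ranked best, chr1:82701365-82701982, was in all 6 lists at ranks 15974 to 27795, with 357, 411 and 401 bp in young and 616, 234 and 246 bp in old. The longest region of the locus, chr1:82724315-82725711, lies in the flank over the start of the neighbour Mff. On the equal-length lists, which keep only these latter regions, Col4a3 had 778, 909 and 1650 bp in young and 1147, 792 and 781 bp in old, and the ages overlapped. Its divergent neighbour Col4a4, whose locus shares 20.1 kb with it, had a difference of 0.00 (95% interval -0.40 to 0.40) and no peak at all on the equal-length lists.

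Col4a1 and Col4a2, the widespread chains of the same network, lie head to head and share 20.1 kb of their loci. On the deposited lists Col4a1 was covered over 10507, 9596 and 9821 bp in young and 11335, 11140 and 11194 bp in old, a difference of 0.17 (SE 0.06, limma adjusted p = 0.217). Among the strongest peaks it had 2393, 2209 and 2145 bp in young and 4516, 2441 and 4639 bp in old, a difference of 0.68 (SE 0.22, limma adjusted p = 0.194). All old values lay above the young values on both lists, but old library 2 was close to the young ones on the equal-length lists, and without it the locus was called (0.97, limma adjusted p = 0.0437). A region inside Col4a1, chr8:11261972-11262726, was among the strongest 50000 peaks in all 3 old libraries, over 755, 585 and 558 bp, and in no young library. Col4a2 changed sign with the list. On the deposited lists it had 15577, 16523 and 16083 bp in young and 16058, 14249 and 14895 bp in old (-0.09, SE 0.06, limma adjusted p = 0.532). It had 6059, 7124 and 7772 bp in young and 9516, 7093 and 7511 bp in old on the equal-length lists (0.19, SE 0.13, limma adjusted p = 0.552), and the ages overlapped on both. Col4a2 held 2 regions of the same kind, the longer at chr8:11327324-11328356 with 1028, 1031 and 1024 bp in old. At all 3 places every young library had a weaker peak on the deposited lists. At the longer Col4a2 region these young peaks ran from 14.551 to 15.567, 14.545 to 15.551 and 14.545 to 15.549 kb past the Col4a2 start site. The old peaks ran from 14.524 to 15.551, 14.519 to 15.549 and 14.526 to 15.549 kb. These regions thus mark the crossing of a rank limit. The start sites of both genes lay under 1 weak peak in every library, ranked 74412 to 146627. The remaining network chains are Col4a5, with 3.42 bp per kb the least covered collagen locus on the deposited lists (-0.35, below the filter on the equal-length lists), and Col4a6 (7.50 bp per kb). Col4a6 had -0.30 on the deposited lists (limma adjusted p = 0.293) and 0.30 on the equal-length lists (adjusted p = 0.725), with overlap on both.

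**Figure D3:**
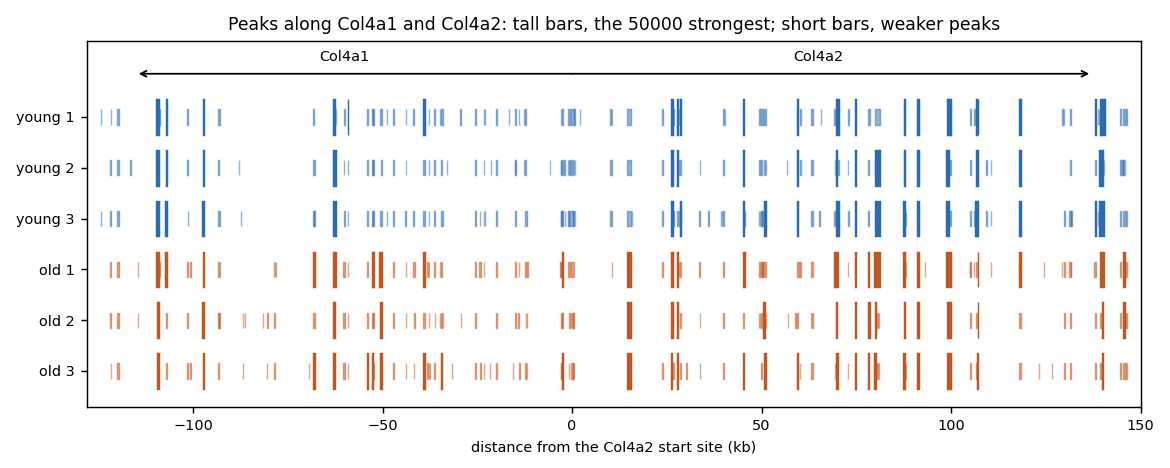
Peaks along the divergent Col4a1 and Col4a2 genes by distance from the Col4a2 start site (kb) in each young (blue) and old (orange) library, with arrows for the gene spans. Tall bars are peaks among the 50000 strongest of a library and short bars weaker peaks. In the 3 old libraries tall bars stand inside both genes at 3 places where no young library has one, and both start sites carry short bars only. Every young library has a short bar at these places.

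Among the 11 fibrillar collagens, 9 differences were negative on the deposited lists (median -0.14) and 8 of 10 positive on the equal-length lists (median 0.21), with none called by limma on either. Col3a1 had opposite signs. In the deposited lists it was covered over 3142, 3035 and 3326 bp in young and 2758, 2922 and 2667 bp in old (-0.18, SE 0.09, limma adjusted p = 0.424). With the strongest peaks alone it had 320, 420 and 389 bp in young and 892, 687 and 1068 bp in old (0.90, SE 0.20, limma adjusted p = 0.0808). The groups did not overlap on either list. The equal-length value rests on 3 regions. A peak in the flank, chr1:45355866-45356319, was there in all 6 libraries over 341 to 440 bp. The regions chr1:45313897-45314309 and chr1:45315847-45316439, inside the gene near its start, had peaks in all 6 deposited lists, with ranks of 50924 to 74736 in young and 41771 to 65442 in old. Each entered the strongest 50000 in 2 old libraries and in no young library, so the difference marks the crossing of a rank limit.

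The type I collagen genes encode the main protein of bone, and their young and old values overlapped. Col1a1, whose cover of 129 bp per kb was the highest of all collagen loci on the deposited lists, had 5102, 4409 and 5478 bp in young and 4552, 4729 and 4245 bp in old (-0.14, 95% interval -0.32 to 0.05). Col1a2 had 5585, 4863 and 5562 bp in young and 5715, 4459 and 3876 bp in old (-0.20, 95% interval -0.45 to 0.05). Their differences on the equal-length lists were 0.17 and -0.09. The intervals hold differences in either direction. Short genes take much of their cover from the flanks: of the Col1a1 regions among the strongest peaks of all 6 libraries, 3 lay in its flank and 1 in the gene.

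The other fibrillar members were as follows. Col5a3, a minor chain of type V collagen, had 3591, 4312 and 3773 bp in young and 4812, 4394 and 5002 bp in old on the deposited lists (0.27, SE 0.09, limma adjusted p = 0.161), without overlap. Its difference on the equal-length lists was 0.03. Col5a1, the common type V chain, had -0.07 on the deposited lists. Its strongest peaks covered 2538, 2403 and 2003 bp in young and 2557, 2867 and 2844 bp in old (0.24, SE 0.11, limma adjusted p = 0.363), where old library 1 exceeded young library 1 by little. The cartilage collagens Col2a1 and Col11a2 had -0.07 and -0.16 on the deposited lists and 0.34 and -0.06 on the equal-length lists, and Col11a1 had the largest difference of all members on the deposited lists, -0.71, with the largest interval (-1.48 to 0.06). Col11a1 was sparsely covered, at 7.53 bp per kb, and fell below the filter on the equal-length lists. Col27a1 and Col24a1, fibrillar collagens of cartilage and developing bone, had 0.01 and -0.12 on the deposited lists, and Col5a2 had -0.24. Among the strongest peaks they had 0.21, 0.20 and 0.28. Young and old values of Col2a1, Col11a2, Col11a1, Col27a1, Col24a1 and Col5a2 overlapped on both lists.

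**Figure D4:**
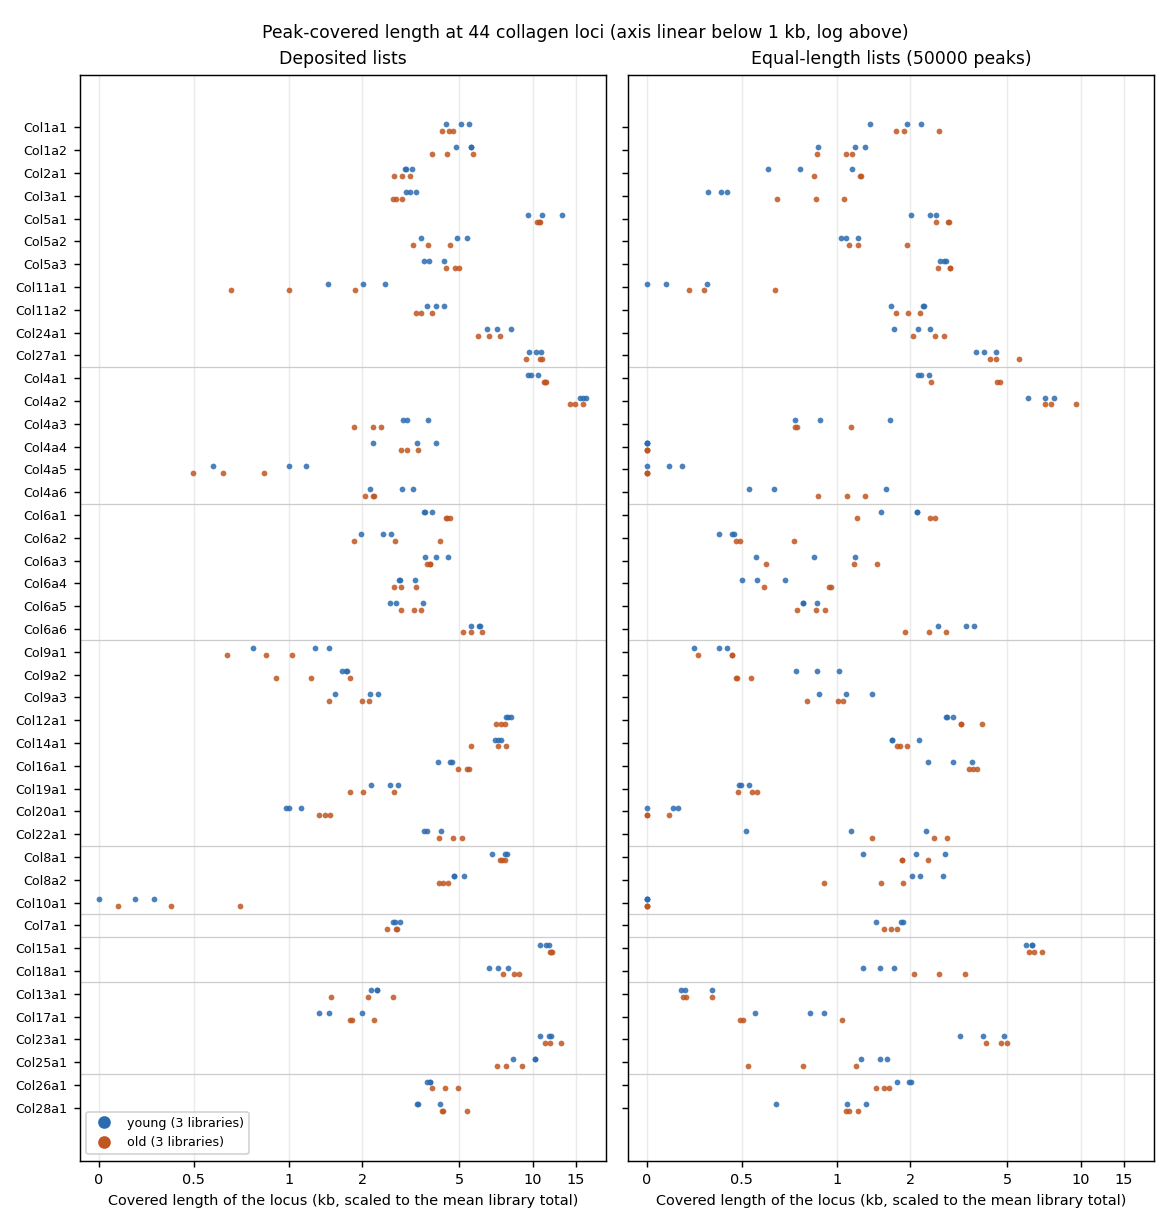
Covered length of each of the 44 collagen loci (kb, scaled, horizontal axis linear below 1 kb and logarithmic above) in every young (blue) and old (orange) library on the deposited lists (left) and the equal-length lists (right), with lines between the classes. The points of the ages interleave at most loci, and Col4a4 and Col10a1 sit at 0 on the equal-length lists.

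The beaded-filament collagens, type VI, split evenly on the deposited lists, with 3 positive and 3 negative differences and a median of 0.05. Col6a1 had 3612, 3577 and 3873 bp in young and 4392, 4561 and 4464 bp in old (0.27, SE 0.08, limma adjusted p = 0.128), and its groups stood apart with little spread. It was called wider with 5 kb flanks (0.40, limma adjusted p = 0.0368) and on lists of 100000 peaks (0.48, limma adjusted p = 0.0319). With 50000 peaks it had 1512, 2123 and 2133 bp in young and 2404, 1214 and 2535 bp in old (0.04, SE 0.26), and the ages overlapped. A region below the gene, chr10:76706424-76707977, was covered over 982, 596 and 940 bp in young and 1473, 1454 and 1270 bp in old, unscaled. Its ranks of 60732 to 111827 lay outside the 50000 strongest peaks in every library. Col6a2 had 2439, 1984 and 2614 bp in young and 4175, 1845 and 2729 bp in old on the deposited lists, a difference of 0.23 that reversed to -0.05 without old library 1. Col6a2 on the equal-length lists was its start-site peak alone, with 446, 458 and 381 bp in young and 775, 490 and 471 bp in old (0.29, SE 0.23, limma adjusted p = 0.622). The other members, Col6a3 to Col6a6, had -0.09 to 0.12 on the deposited lists. With the strongest peaks alone, Col6a3, Col6a4 and Col6a5 had 0.23, 0.38 and 0.03, and Col6a6 had -0.41 with an unadjusted limma p of 0.0361 and an adjusted p of 0.286.

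The fibril-associated collagens had 3 positive and 6 negative differences on the deposited lists (median -0.10). Col20a1, a little-studied member, had 986, 1004 and 1128 bp in young and 1337, 1404 and 1476 bp in old (0.37, SE 0.13, limma adjusted p = 0.211), the largest positive difference of any collagen on these lists. It fell below the filter on the equal-length lists. Col16a1 had 4649, 4096 and 4564 bp in young and 5371, 4952 and 5456 bp in old (0.24, SE 0.08, limma adjusted p = 0.188), without overlap. Its strongest peaks gave 0.28 (SE 0.14, limma adjusted p = 0.398), and young library 1 lay within the old range. Col12a1, found along fibrils of tendon and other dense tissue, changed sign with the list. It had 7924, 7801 and 8177 bp in young and 7406, 7055 and 7691 bp in old on the deposited lists (-0.11) and 2826, 2981 and 2790 bp in young and 3211, 3220 and 3918 bp in old on the equal-length lists (0.25, SE 0.10, limma adjusted p = 0.292). The ages stood apart on both lists, in opposite directions.

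Col9a2, a chain of cartilage type IX collagen, had one of the largest negative values on the equal-length lists. It was covered over 785, 1019 and 893 bp in young and 474, 547 and 471 bp in old (-0.65, SE 0.16, limma adjusted p = 0.0995), without overlap. This value is the length of 1 region inside the gene, chr4:121040576-121041577, which was in all 6 lists at ranks 34737 to 49309. Col9a2 on the deposited lists had 1660, 1737 and 1710 bp in young and 1779, 1231 and 934 bp in old (-0.37), where old library 1 was above all young libraries, and without that library it was called narrower (-0.58, limma adjusted p = 0.0494). Col22a1, of tissue junctions, had 0.27 and 0.80 on the deposited and equal-length lists, with the latter interval from -0.19 to 1.79. Col9a1, Col9a3, Col14a1 and Col19a1 had -0.36, -0.10, -0.09 and -0.22 on the deposited lists. Col9a1 fell below the filter on the equal-length lists, where the other three had -0.18, 0.00 and 0.06. Col9a1 and Col19a1 share 15.1 kb of their loci.

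Col18a1 and Col15a1, the multiplexins of basement membrane zones, whose C-terminal fragments are endostatin and its relative, were positive on both lists. Col18a1 had 1706, 1502 and 1283 bp in young and 3338, 2076 and 2611 bp in old on the equal-length lists (0.74, SE 0.17, limma adjusted p = 0.0932), without overlap. The deposited lists gave it 7200, 6642 and 7903 bp in young and 8372, 7572 and 8792 bp in old (0.18, SE 0.08, limma adjusted p = 0.325), and young library 3 exceeded old library 2. It held 2 regions found among the strongest peaks of all 3 old libraries and of no young library. The longer, chr10:77113636-77114147, covered 512, 231 and 241 bp in old. Merged over the libraries it reaches an inner start site of the gene, but among the strongest peaks only that of old library 1 (rank 46938) lay over this site. On the full lists the peaks over it in old libraries 2 and 3 ranked 106274 and 130748. Col15a1 was one of the most densely covered collagen loci, at 92.1 bp per kb. It had 11282, 10745 and 11678 bp in young and 12027, 11848 and 11803 bp in old on the deposited lists (0.08, SE 0.06, limma adjusted p = 0.616), and 0.06 on the equal-length lists.

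Of the short-chain network collagens, Col8a2, a chain of the type VIII collagen of vessel walls and cornea, was lower in all old libraries on both lists without being called. It had 4735, 5212 and 4758 bp in young and 4276, 4116 and 4478 bp in old on the deposited lists (-0.18, SE 0.08, limma adjusted p = 0.331). Its strongest peaks covered 2196, 2720 and 2040 bp in young and 1861, 931 and 1521 bp in old (-0.66, SE 0.22, limma adjusted p = 0.206). Old library 2 was the lowest there, and of the 4 regions of Col8a2 on these lists it kept 1, over the Adprhl2 start site. Its partner Col8a1 had 0.02 and 0.03. Col10a1, the marker of hypertrophic cartilage, fell below the filter, with 290, 0 and 188 bp in young and 741, 103 and 378 bp in old, and had no peak on the equal-length lists. The anchoring-fibril collagen Col7a1 had -0.03 on both lists, with a 95% interval of -0.22 to 0.16 on the deposited lists.

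Among the transmembrane collagens, Col25a1, a neuronal and muscle collagen with the longest gene of the family (419.5 kb), had 1607, 1499 and 1258 bp in young and 819, 532 and 1195 bp in old on the equal-length lists (-0.70, SE 0.23, limma adjusted p = 0.196). The value rests on few peaks, 1 to 4 per library. A region inside the gene, chr3:130432884-130433384, was among the strongest peaks of all 3 young libraries, over 462 to 501 bp, and of 1 old library, over 329 bp. Col25a1 on the deposited lists had -0.26 (SE 0.10, limma adjusted p = 0.262), and the ages overlapped. Col17a1 had 1332, 1989 and 1467 bp in young and 1823, 2240 and 1780 bp in old on the deposited lists (0.27) and -0.20 on the equal-length lists, with overlap on both. Col13a1 and Col23a1 had -0.13 and 0.07 on the deposited lists. Col23a1 had 0.20 on the equal-length lists, where Col13a1 fell below the filter. The unclassed Col28a1 had 3348, 3378 and 4170 bp in young and 5380, 4303 and 4268 bp in old (0.34, SE 0.10, limma adjusted p = 0.141) on the deposited lists, without overlap, and 0.16 with overlap on the equal-length lists. Col26a1 had 3782, 3806 and 3674 bp in young and 4363, 4951 and 3868 bp in old on the deposited lists (0.21) but 1759, 2018 and 1971 bp in young and 1559, 1440 and 1634 bp in old on the equal-length lists (-0.28, limma adjusted p = 0.257). Its groups stood apart in opposite directions on the 2 lists.

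**Figure D5:**
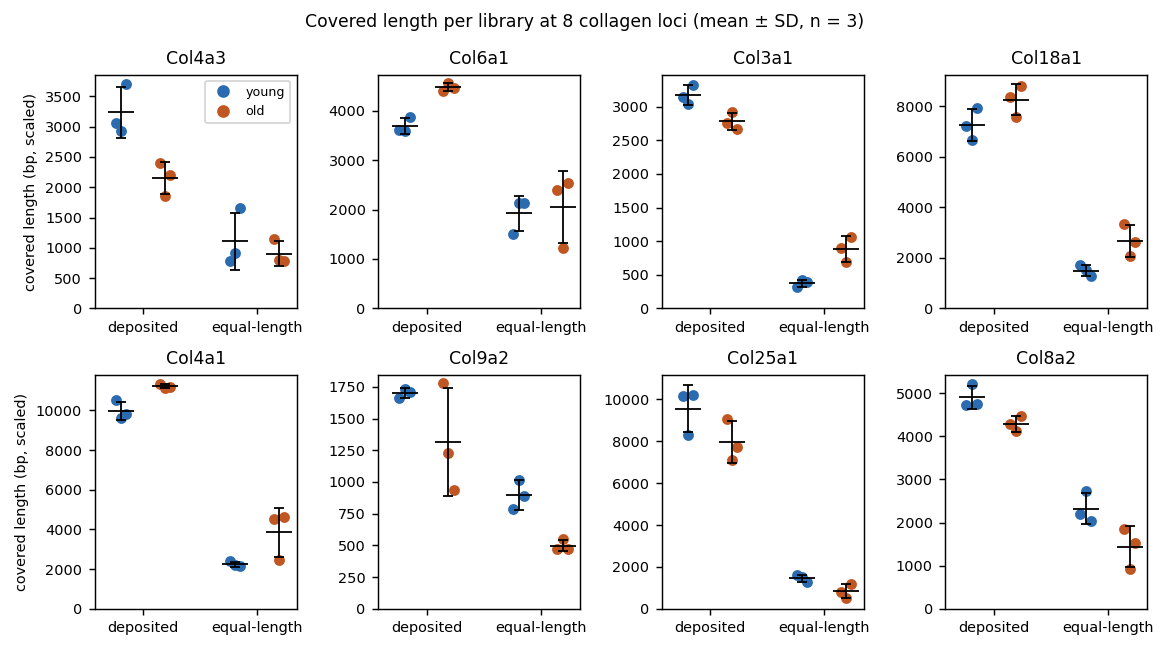
Covered length (bp, scaled) of 8 collagen loci in each young (blue) and old (orange) library on the deposited and the equal-length lists, with the mean and SD of 3 libraries. Col4a3 is lower in old on the deposited lists alone without overlap, Col3a1 turns from lower to higher, and the points of Col6a1 separate on the deposited lists only.

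Regions seen at one age only were few. On the deposited lists, 7 of the 1715 collagen-locus regions (0.408%) had a peak in all 3 old libraries and no young one, and 18 (1.05%) in all 3 young libraries and no old one. Over all gene loci the shares were 0.469% and 1.35%, both near those at collagen loci. The old-only regions lay at Col1a2, Col4a1, Col6a2, Col15a1, Col17a1, Col20a1 and Col22a1. These were weak peaks, and the best rank reached by any was 72386, in Col17a1. The young-only regions were spread over 17 loci, with 1 region shared by Col4a1 and Col4a2. A single one, merged over the libraries at Col13a1, overlapped a start site, with 102, 60 and 100 bp in young. On the equal-length lists 10 of 238 regions (4.20%) were old-only and 2 (0.840%) young-only, where the shares over all loci were 2.95% and 2.40%. The old-only regions belonged to Col4a2 and Col18a1 with 2 each, and to Col4a1, Col5a1, Col5a2, Col15a1, Col24a1 and Col27a1 with 1 each. The young-only ones belonged to Col6a3 and Col6a6. None of these equal-length regions was old-only or young-only on the deposited lists. Each lay there in a merged region that also held a peak from a library of the other age. Their restriction to an age thus depends on the rank limit of the equal-length lists. The Col6a6 region, chr9:105696890-105697223, had 334, 266 and 303 bp in young, and the Col24a1 region, chr3:145375259-145375967, had 535, 697 and 619 bp in old.

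Genes that modify, cut, cross-link or bind collagen were read in the same way from a list of 41. On the deposited lists none was called wider and 2 narrower in old by limma, where 0.390% and 0.578% of all 16943 loci were called. Of the differences, 19 were positive and 22 negative, with a median of -0.01. Gp6, the collagen receptor of platelets, had 1392, 1249 and 1270 bp in young and 664, 676 and 602 bp in old (-0.83, SE 0.15, limma adjusted p = 0.0155). Tll1, a protease related to the one that trims the C-terminal propeptide, had 3121, 2977 and 3496 bp in young and 2536, 1596 and 1700 bp in old (-0.69, SE 0.14, limma adjusted p = 0.0297). Among the strongest peaks, neither had a peak in any old library, and both stood below the filter. None of the 9 prolyl hydroxylation genes, the 5 for lysyl hydroxylation and glycosylation, the 3 for folding and export and the 5 for cross-linking was called on either list. Serpinh1, the collagen chaperone, had 0.20 on the deposited lists, with overlap. Its strongest peaks covered 1384, 1751 and 1545 bp in young and 1955, 2543 and 2315 bp in old (0.49, SE 0.13, limma adjusted p = 0.129), without overlap. The cross-linking enzyme Lox had -0.32 on the deposited lists with all old values below the young ones (limma adjusted p = 0.125), and -0.03 with overlap on the equal-length lists.

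On the equal-length lists 36 of these genes were tested, with 22 positive and 14 negative differences and a median of 0.06. By limma none was called wider and 1 narrower, against 0.841% and 0.438% of all 14380 loci. This was Mrc1, the mannose receptor through which macrophages take up collagen. It had 3496, 4120 and 4011 bp in young and 1413, 1742 and 2340 bp in old (-1.03, SE 0.16, limma adjusted p = 0.0317), without overlap. Mrc1 on the deposited lists had 7618, 7129 and 6879 bp in young and 6053, 5772 and 6138 bp in old (-0.26, SE 0.07, limma adjusted p = 0.0953), again without overlap. Its relative Mrc2 had -0.03 and -0.25 on the deposited and equal-length lists, with overlap. The collagen-binding receptor Itga2 had 710, 620 and 271 bp in young and 1359, 975 and 1713 bp in old on the equal-length lists (1.11, SE 0.28, limma adjusted p = 0.115), but -0.27 on the deposited lists. Its relatives went both ways on the equal-length lists. Itga11 had 0.69 with all old values above the young ones, and Itga10 -0.70 with all below (limma adjusted p = 0.154 and 0.131). The propeptide proteases Adamts2, Adamts14 and Tll2 had 0.72, 0.59 and 0.64 on the equal-length lists with all old values above the young ones, and 0.14, 0.08 and -0.07 on the deposited lists, and none was called. Of the other genes of propeptide cleavage tested on the equal-length lists, Bmp1 had 0.15, Adamts3 -0.06 and Pcolce -0.13.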

How the data were processed

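The 6 libraries (3 young, 3 old) are Omni-ATAC libraries of 50000 cells, sequenced on 4 lanes as paired 125 bp reads, as the labels' protocols say. The tools in the submitters' processing notes are MACS2 (version 2.1.0.20140616), Bowtie2 (2.2.6), Picard, SAMtools, cutadapt (1.14) and Trim Galore (0.4.4), with mm10 as the build. Whether duplicate reads were removed or read ends shifted is not given in the sources used. The authors deposited a MACS2 broad peak list for each library, not pooled, with −log10 p and −log10 q of each peak. The deposited score is 10 times the −log10 q, cut to a whole number in nearly all peaks, and the deposited fold enrichment is the ratio to the library's own local background. The lowest −log10 q was just over 1 in every list.

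Gene spans and start sites came from RefSeq tables of GRCm38.p6, whose chromosomes are those of mm10. Covered length was counted per locus, gene plus 10 kb on each side, scaled so that every library has the same sum over loci, and fitted with limma 3.58.1 (trend and robust, R 4.3.3) on log2(bp + 200) for loci whose mean reached 500 bp, adjusted by Benjamini-Hochberg at 0.05. The fold scale understates changes of sparsely covered loci. Regions are peaks of the 6 libraries merged at 1 bp of overlap. Tables were made with Python 3.11.15, numpy 2.4.6 and pandas 2.3.3, figures with matplotlib 3.10.9. The fit was first tested on simulated data with the spread of the real values and 200 changed loci. On the deposited lists it recovered 28.0% of changes of 0.5 and 90.0% of changes of 1.0 on the log2 scale. On the equal-length lists it recovered 0% and 69.5% of them. A locus that was not called can therefore still differ.

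The members and lists were chosen with earlier results of these data known. Named loci were any past the threshold, up to 5 more per direction and list with the largest difference among those whose ages did not overlap, and 13 well-known members. Further loci are given by their value to account for every member, and the motifs and the regions within loci were chosen after the data were seen. Alternatives were peaks of −log10 q of at least 2 or 5, lists of 25000 or 100000 peaks, flanks of 0 or 5 kb, a pseudocount of 50 bp, no filter, no scaling, quantile normalization, leaving out each library and a replicate block. Added after the data were seen were a covariate for total covered length and the equal-length lists for start sites and regions.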

Additional observations from a re-analysis of the deposited data

How the results depend on the processing

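Of 388 alternative values for single loci on the deposited lists, 352 kept direction and side of the threshold, 24 changed sign, 10 lost the call (all at Col4a3) and 2 gained one. On the equal-length lists 314 of 337 kept both, 21 changed sign and 2 gained a call. The count of loci called narrower on the deposited lists (1) was 0 with −log10 q of at least 2 or 5, without the filter, without scaling, with total covered length as a covariate and on equal-length lists, and 0 to 3 when leaving out a library. Without old replicate 1 the 3 were Col4a3 (-0.62), Col9a2 (-0.58) and Col11a1, the last named after its value was seen. The count called wider was 1 (Col6a1) with 5 kb flanks. On the equal-length lists it was 1 (Col6a1) with 100000 peaks and 0 to 1 without a library. Start sites with a peak in all 6 libraries, 15, became 24 within 500 bp and 5 on equal-length lists. Old-only regions, 7, became 4 at −log10 q of 2 or more, and young-only regions, 18, became 2 on equal-length lists. Signs of the deposited values turned as follows. With −log10 q of 2 or more, Col2a1 had 0.03 and Col5a1 0.02. With 5 or more, Col1a1 had 0.33, Col2a1 0.42, Col4a2 0.03, Col5a1 0.22, Col12a1 0.19, Col17a1 -0.34 and Col26a1 -0.02. On equal-length lists, Col1a1 had 0.17, Col2a1 0.34, Col3a1 0.90, Col4a2 0.19, Col5a1 0.24, Col12a1 0.25, Col17a1 -0.20 and Col26a1 -0.28. Without scaling, Col15a1 had -0.08 and Col27a1 -0.15. Leaving out a library gave Col5a1 -0.18 to 0.05, Col6a2 -0.05 to 0.50 and Col27a1 -0.03 to 0.07. Signs of the equal-length values turned with 25000 peaks at Col4a1 (-0.09), Col4a2 (-0.24), Col4a3 (0.03), Col15a1 (-0.05) and Col26a1 (0.51), and with 100000 peaks at Col1a2 (0.08), Col17a1 (0.10) and Col26a1 (0.00). Without scaling they turned at Col5a3 (-0.08), Col6a1 (-0.07) and Col15a1 (-0.05), and with the covariate at Col1a2 (0.03) and Col17a1 (0.11). Leaving out a library gave Col1a1 -0.01 to 0.30, Col1a2 -0.22 to 0.01, Col4a3 -0.39 to 0.07, Col6a1 -0.13 to 0.35 and Col28a1 -0.06 to 0.33. The cause of these turns was not tested. Same-numbered libraries did not deviate together (correlations 0.14, 0.14 and -0.16 on the deposited and 0.04, 0.05 and 0.03 on the equal-length lists), and the replicate block changed no call, with 1 locus narrower and Col4a3 at -0.54 (limma adjusted p = 0.0106). Read depth is unknown, so absence of a peak means that none was called.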
